A study of Mus musculus with 6 samples.

Results

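The genes examined here encode the NF-κB transcription factor subunits and the inhibitor of NF-κB (IκB) proteins that bind them. Members were the rows of the count table whose gene name was Rela, Relb, Rel, Nfkb1, Nfkb2, Nfkbia, Nfkbib, Nfkbie, Nfkbiz or Bcl3. Of the 10 names, 9 matched a row among the 41721 rows of the table. No row was named Nfkbiz, which was not analysed here.

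The libraries came from cultured smooth muscle cells of the mouse aorta (MASMCs), which were dissociated with collagenase from the abdominal segment of 10-week-old animals and used at passages 4 to 8. Pdk4fl/fl cells carry loxP sites around exons 4 to 6 of Pdk4, which encodes pyruvate dehydrogenase kinase 4, a mitochondrial kinase that restrains entry of pyruvate into oxidative metabolism. Pdk4SMKO cells came from Pdk4fl/fl mice that also carried a tamoxifen-inducible Cre recombinase driven by the Myh11 promoter, which is active in smooth muscle. Mice of both genotypes received tamoxifen for 5 days at 6 weeks of age (75 mg/kg/day), and both were on a C57BL/6J background. Every library was from cells given angiotensin II (Ang II, 1 µM for 48 h), a vasoactive peptide that acts on smooth muscle, so the comparison is of genotype under Ang II and no untreated library enters it. Each genotype had 3 libraries, described by the study as biological replicates, but nothing in the labels ties a library to a separate animal or culture, so the p-values measure the spread between these libraries. The question was which transcripts of the NF-κB system differed when Pdk4 had been deleted.

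NF-κB works as a dimer of the subunits RelA, RelB, c-Rel, p50 (cut from the Nfkb1 product) and p52 (cut from the Nfkb2 product). In resting cells IκB proteins hold the dimers in the cytoplasm, and the IκB kinase (IKK) complex marks IκB for destruction so that the dimers enter the nucleus. Several members are themselves NF-κB target genes, of which Nfkbia is the textbook case of negative feedback. In the vessel wall the pathway is known for driving inflammatory gene expression.

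Total counts per library were between 16526044 and 22481670. A count of 3, taken as the detection floor, was worth 0.132 to 0.227 CPM (counts in a library scaled to its sequencing depth by trimmed mean of M-values, TMM). The floor covers counting error alone, whereas the SEs and intervals of the fold changes come from the edgeR fit and include the spread between libraries. Of 14085 genes tested by the edgeR quasi-likelihood test, 3733 were lower and 4616 higher in Pdk4SMKO with a Benjamini-Hochberg adjusted p below 0.05 and at least a 2-fold difference, which is what "called" means below. Scaling moved this split: by library size alone, 2390 genes were lower and 6184 higher. Pairwise correlations of log2 CPM across genes were at least 0.981 within a genotype and at most 0.748 between genotypes. Pdk4 itself had 570, 639 and 421 counts in Pdk4fl/fl and 110, 182 and 141 in Pdk4SMKO, or 34.98 ± 3.07 against 6.93 ± 2.11 CPM (SD, n = 3), a log2 fold change of −2.34 (SE 0.22, adjusted p = 4.5e-06). The gene-level count includes exons outside the floxed part, so it checks the labels only in part.

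The cell type label was checked against marker lists. Acta2, the smooth muscle actin, averaged 233 CPM in Pdk4fl/fl and 701 CPM in Pdk4SMKO. Myh11, the smooth muscle myosin whose promoter drives the Cre, was far lower, at 0.613 CPM in Pdk4fl/fl and 2.39 CPM in Pdk4SMKO. Of the 8 smooth muscle markers, 3 were called lower and 4 higher in Pdk4SMKO, with summed levels of 785 to 811 CPM in Pdk4fl/fl and 723 to 954 CPM in Pdk4SMKO. Mesothelial markers summed to 74.2 to 99.99 CPM against 723 to 1325 CPM, with 7 of 7 tested called higher. Fibroblast markers summed to 638 to 861 CPM against 5643 to 7329 CPM, with 1 lower and 4 higher of 7. Macrophage markers summed to 22.7 to 40.1 CPM against 65.7 to 69.6 CPM, with 1 lower and 7 higher of 8, and Adgre1, C1qa, C1qb, C1qc and Tyrobp had no count in any Pdk4fl/fl library. Endothelial markers summed to 14.1 to 23.7 CPM against 2.94 to 5.62 CPM, with 2 of 2 tested called lower, and leukocyte markers to 4.01 to 4.94 CPM against 0.149 to 1.54 CPM, with Cd79a, the 1 gene tested, called lower. Apart from the smooth muscle sums, which overlapped between genotypes, the summed levels of these lists separated the genotypes as the members did, and their part in the members' differences was not tested. In bulk RNA, fewer cells of a type and less RNA per cell cannot be told apart.

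The promoters of several members hold κB-like letters, and 6 windows are shown to set some with such letters beside some without. Sequences are RefSeq windows of the 250 bases upstream of an annotated start on GRCm38.p6, written 5′ to 3′ along the gene's strand, with matches to the κB consensus in capitals. The windows belong to that reference and not to the annotation behind the counts.
Nfkbia (chr12:55492648-55492897, minus strand): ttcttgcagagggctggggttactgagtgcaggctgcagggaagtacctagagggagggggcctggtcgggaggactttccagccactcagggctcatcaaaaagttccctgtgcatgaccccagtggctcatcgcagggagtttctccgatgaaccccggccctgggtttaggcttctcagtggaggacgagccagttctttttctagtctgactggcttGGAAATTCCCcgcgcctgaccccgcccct
Rel (chr11:23770970-23771219, minus strand): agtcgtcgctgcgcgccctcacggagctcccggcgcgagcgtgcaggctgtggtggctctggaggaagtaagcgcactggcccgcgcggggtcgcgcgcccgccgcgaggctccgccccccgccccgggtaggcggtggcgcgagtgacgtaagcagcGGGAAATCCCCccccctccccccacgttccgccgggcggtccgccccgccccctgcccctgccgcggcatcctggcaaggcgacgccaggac
Nfkb2 (chr19:46304487-46304736, plus strand): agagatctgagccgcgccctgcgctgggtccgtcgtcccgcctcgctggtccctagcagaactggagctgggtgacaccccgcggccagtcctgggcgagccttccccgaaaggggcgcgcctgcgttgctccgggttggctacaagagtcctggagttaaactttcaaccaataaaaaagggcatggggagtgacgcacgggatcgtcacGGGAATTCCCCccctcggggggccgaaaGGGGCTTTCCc
Nfkbie (chr17:45555450-45555699, plus strand): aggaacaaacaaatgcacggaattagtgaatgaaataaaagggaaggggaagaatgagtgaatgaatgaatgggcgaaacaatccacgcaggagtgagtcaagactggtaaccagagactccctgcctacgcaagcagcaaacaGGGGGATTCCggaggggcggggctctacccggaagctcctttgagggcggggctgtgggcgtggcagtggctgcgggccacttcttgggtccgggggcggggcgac
Rela (chr19:5637291-5637540, plus strand): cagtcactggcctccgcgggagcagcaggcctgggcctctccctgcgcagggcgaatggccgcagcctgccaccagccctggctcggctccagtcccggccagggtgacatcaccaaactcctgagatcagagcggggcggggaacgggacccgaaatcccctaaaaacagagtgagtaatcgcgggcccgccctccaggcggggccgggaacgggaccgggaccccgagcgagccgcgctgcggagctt
Bcl3 (chr7:19822756-19823005, minus strand): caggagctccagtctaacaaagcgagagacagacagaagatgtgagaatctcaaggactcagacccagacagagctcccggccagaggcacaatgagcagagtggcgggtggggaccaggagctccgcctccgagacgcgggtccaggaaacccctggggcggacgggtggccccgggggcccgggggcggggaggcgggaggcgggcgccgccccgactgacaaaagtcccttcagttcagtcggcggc

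RefSeq windows matched 7 of the members, with 9 windows in all since Nfkb2 had 3, and none was held for Relb, Nfkb1 or Nfkbiz. Both strands were searched for the κB consensus, a run of G and a run of C around an A- or T-rich centre, and for the GC-box letters GGGCGG. The consensus occurred in 6 windows of 4 members (Rel, Nfkb2, Nfkbia and Nfkbie) and in 3.9% of all 32851 windows of the same length. In the Nfkbia window the match reads GGGAATTTCC on the strand opposite to the one printed, with its outermost base 29 bases before the start. In the Rel window the capitals cover 3 overlapping consensus matches, and in the first Nfkb2 window they cover 4 matches in 2 places. GGGCGG occurred in 7 windows of 6 members against 32.7% of all windows. The windows of Rela, Nfkbib and Bcl3 lacked the κB consensus in these 250 bases, and that of Nfkbib, which is not printed, also lacked GGGCGG. Of these 3 members, Rela and Nfkbib were lower in Pdk4SMKO and Bcl3 higher. These letters are a description of the windows, not evidence of a bound site.

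Among the 9 members, 7 were called lower in Pdk4SMKO (Rela, Relb, Rel, Nfkb2, Nfkbia, Nfkbib and Nfkbie), 1 was called higher (Bcl3), and Nfkb1 missed the fold threshold. Over all genes tested 59.3% were called, 26.5% lower and 32.8% higher. The median log2 fold change was −3.22 over the members and 0.12 over all genes tested. In each of the 9 members the libraries of the genotypes did not overlap, as was also the case for 81.8% of all genes tested. The exact two-sided permutation test on each member gave p = 0.1, the smallest that 3 against 3 libraries allow. Rela, Nfkbia and Nfkbib are among the genes the study chose to display from these same libraries, so their direction is not independent evidence.

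**Figure D1:**
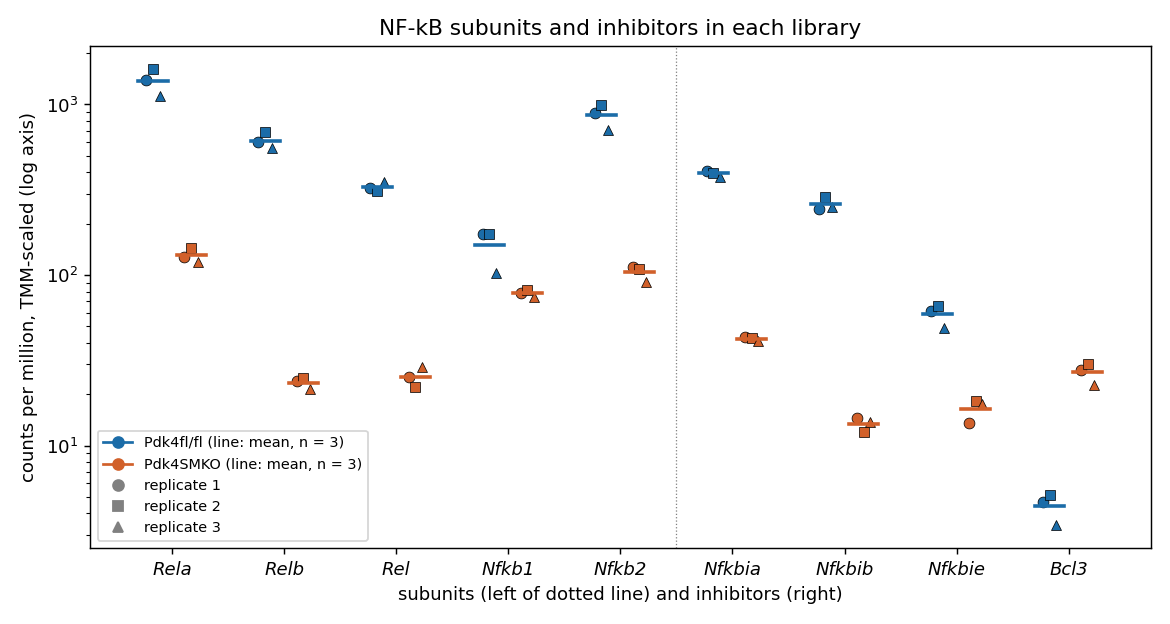
Level of each member in each of the 6 libraries, in TMM-scaled CPM on a log axis. Points are libraries (blue Pdk4fl/fl, orange Pdk4SMKO, symbol by replicate number) and horizontal lines are means of 3. Blue points lie above orange ones for every member except Bcl3, where the order is turned around.

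Rela encodes the main transactivating subunit of the canonical pathway (MGP_C57BL6NJ_G0025132, chr19:2688916-2699563, plus strand, on the C57BL/6NJ annotation the table uses, as are all positions of members). It had 1384, 1619 and 1126 CPM in the Pdk4fl/fl libraries and 127, 145 and 119 CPM in the Pdk4SMKO libraries. The lowest Pdk4fl/fl library was well above the highest Pdk4SMKO library. The means were 1376 ± 247 and 130 ± 13.2 CPM (SD, n = 3), so that Pdk4SMKO held 9.46% of the Pdk4fl/fl level (log2 fold change −3.40, SE 0.17, adjusted p = 6.6e-08). Rela stood at the 99.3rd percentile of tested genes by CPM in Pdk4fl/fl and at the 90.5th in Pdk4SMKO, so it stayed among the more abundant transcripts.

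Relb (MGP_C57BL6NJ_G0032234, chr7:18504707-18532383, minus strand) encodes the partner of p52 in the noncanonical pathway and showed the largest difference of the 9 members. Its counts were 8996, 12570 and 7297 in Pdk4fl/fl and 543, 499 and 439 in Pdk4SMKO. Replicate spread was small beside that gap. In CPM this was 614 ± 70.1 against 23.4 ± 1.69 (SD, n = 3), 26.2-fold lower (log2 fold change −4.71, SE 0.15, adjusted p = 9.9e-09). Among tested genes, 2.26% had a more negative log2 fold change than Relb.

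Rel (MGP_C57BL6NJ_G0018485, chr11:22367386-22402415, minus strand) encodes c-Rel, a subunit best known from lymphoid cells. It had 324, 309 and 352 CPM in Pdk4fl/fl and 25.1, 22.1 and 29.0 CPM in Pdk4SMKO. Means were 328 ± 21.4 and 25.4 ± 3.48 CPM (SD, n = 3), with a log2 fold change of −3.69 (SE 0.14, adjusted p = 2.0e-08).

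Nfkb2 (MGP_C57BL6NJ_G0025617, chr19:47134670-47143311, plus strand) encodes p100, which acts as an inhibitor until it is cut to p52. It had 892, 991 and 706 CPM in Pdk4fl/fl and 112, 109 and 91.0 CPM in Pdk4SMKO. The level fell to 12.03% in Pdk4SMKO, from 863 ± 145 to 104 ± 11.2 CPM (SD, n = 3; log2 fold change −3.05, SE 0.16, adjusted p = 1.0e-07). The gene's end overlaps by 11 bases that of Psd on the other strand, and Psd had 1103 to 2754 counts in Pdk4fl/fl and 205 to 352 in Pdk4SMKO. Whether counting used strand is not given in the sources used here, so reads shared by overlapping genes cannot be assigned.

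Nfkb1 (MGP_C57BL6NJ_G0028323, chr3:143323708-143441258, minus strand) encodes p105 and p50 and was the subunit that differed least. It had 173, 173 and 102 CPM in Pdk4fl/fl and 78.0, 82.1 and 73.9 CPM in Pdk4SMKO. The third Pdk4fl/fl library was closer to the Pdk4SMKO libraries than to the other Pdk4fl/fl libraries. Means were 150 ± 41.1 and 78.0 ± 4.09 CPM (SD, n = 3), giving a log2 fold change of −0.94 (SE 0.19, 95% interval −1.31 to −0.57, adjusted p = 0.00108), short of a 2-fold difference. That library decided the call: without Pdk4fl/fl replicate 3, the log2 fold change was −1.17 and Nfkb1 was called lower. Scaled by library size alone it was −0.34 with an adjusted p of 0.146.

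Nfkbia encodes IκBα, the inhibitor that NF-κB induces against itself (MGP_C57BL6NJ_G0020140, chr12:56166435-56169679, minus strand). It had 409, 399 and 377 CPM in Pdk4fl/fl and 43.2, 42.8 and 41.0 CPM in Pdk4SMKO. Its libraries varied least of all members, with coefficients of variation of 4.21% and 2.81%, against medians of 11.6% and 9.17% over the 7306 genes with a mean of at least 10 CPM in both genotypes. The means of 395 ± 16.6 and 42.3 ± 1.19 CPM (SD, n = 3) correspond to a log2 fold change of −3.22 (SE 0.12, adjusted p = 1.5e-08). Its promoter window, shown above, is the one with GGGAATTTCC close to the start.

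Nfkbib (MGP_C57BL6NJ_G0032408, chr7:28497390-28506651, minus strand) encodes IκBβ, an inhibitor degraded more slowly than IκBα. Its counts were 3647, 5204 and 3323 in Pdk4fl/fl and 332, 242 and 279 in Pdk4SMKO. Mean CPM was 260 ± 22.6 against 13.4 ± 1.29 (SD, n = 3), 19.4-fold lower (log2 fold change −4.27, SE 0.14, adjusted p = 1.1e-08), next to Relb in size. Its span shares 778 bases with Sirt2 on the other strand, and Sirt2 had 1506 to 2231 counts in Pdk4fl/fl and 1041 to 1306 in Pdk4SMKO, a smaller drop in counts than that of Nfkbib.

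Nfkbie (MGP_C57BL6NJ_G0024196, chr17:48584579-48592424, plus strand) encodes IκBε, a later inhibitor of the feedback group. It had 61.5, 66.1 and 49.2 CPM in Pdk4fl/fl and 13.5, 18.2 and 17.5 CPM in Pdk4SMKO. The difference was the smallest among the cytoplasmic inhibitors, from 58.9 ± 8.75 to 16.4 ± 2.51 CPM (SD, n = 3; log2 fold change −1.85, SE 0.17, adjusted p = 3.5e-06).

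Bcl3 (MGP_C57BL6NJ_G0032244, chr7:18743978-18758188, minus strand) encodes a nuclear IκB family protein that binds p50 or p52 homodimers and can activate transcription with them. It was the member called higher. Its counts were 70, 94 and 45 in Pdk4fl/fl and 634, 602 and 465 in Pdk4SMKO, so that even the highest Pdk4fl/fl library was below every Pdk4SMKO library. The level was 4.41 ± 0.905 against 26.9 ± 3.67 CPM (SD, n = 3), 6.09-fold higher in Pdk4SMKO (log2 fold change 2.60, SE 0.20, adjusted p = 1.2e-06). Antisense genes inside its span, Gm16174 and Gm16175, had 97 and 19 counts over all 6 libraries, against 1910 for Bcl3.

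**Figure D2:**
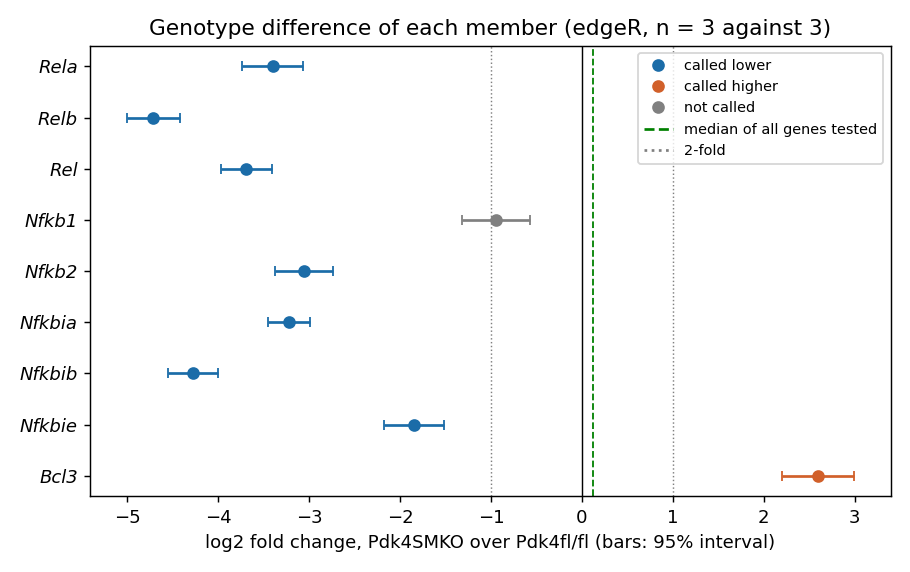
Log2 fold change of each member, Pdk4SMKO over Pdk4fl/fl, with its 95% interval (n = 3 against 3). The solid line marks no difference, dotted lines 2-fold either way, and the dashed line the median of all genes tested (0.12). Relb (−4.71) and Nfkbib (−4.27) lie farthest left, the interval of Nfkb1 spans the 2-fold line, and Bcl3 (2.60) stands alone on the right.

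The direction of each member's fold change was the same under all 4 scalings of the libraries. The median of all genes moved from 0.09 with relative log expression factors to 0.72 with library size alone. Relative to that median, Rela stayed at −3.52, Relb at −4.83, Nfkb1 between −1.07 and −1.06, and Bcl3 between 2.47 and 2.48. Scaling shifts nearly all genes by the same amount, so this constancy follows from the method. It held for other genes too, such as Ccl5 (−9.47 to −9.46). Of the 9 members, 8 were called under each of the 4 scalings, and Nfkb1 under none.

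The members' fold changes were unequal, so their balance within a library was compared through count ratios, which do not depend on scaling between libraries. With 3 against 3 libraries the exact two-sided permutation p cannot go below 0.1, which becomes 0.133 after Benjamini-Hochberg adjustment over the 4 ratios made. The log2 ratio of Relb to Rela was −1.21, −1.23 and −1.03 in Pdk4fl/fl and −2.41, −2.54 and −2.46 in Pdk4SMKO. Relb was lower relative to Rela in every Pdk4SMKO library than in any Pdk4fl/fl library, with a difference of −1.32 (means −1.15 ± 0.11 and −2.47 ± 0.07, SD, n = 3, exact permutation p = 0.1).

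The log2 ratio of Nfkb2 to Nfkb1, the genes of the precursors p100 and p105, was 2.36, 2.51 and 2.79 in Pdk4fl/fl and 0.52, 0.41 and 0.30 in Pdk4SMKO. This was the largest shift of the 4 ratios, −2.15 with no overlap (exact permutation p = 0.1, n = 3 against 3). The log2 ratio of Nfkbie to Nfkbia went from −2.75 ± 0.17 to −1.38 ± 0.26 (SD, n = 3), a difference of 1.38 with no overlap (exact permutation p = 0.1).

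The inhibitor gene Nfkbia was also set against Rela, the subunit its product binds. Their log2 ratio was −1.76, −2.02 and −1.58 in Pdk4fl/fl and −1.56, −1.76 and −1.54 in Pdk4SMKO. These ranges overlapped, and the difference of 0.17 between means was within the spread of the Pdk4fl/fl libraries (SD 0.22, exact permutation p = 0.2, n = 3 against 3). With so few libraries this does not show that the ratio was unaffected by genotype.

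**Figure D3:**
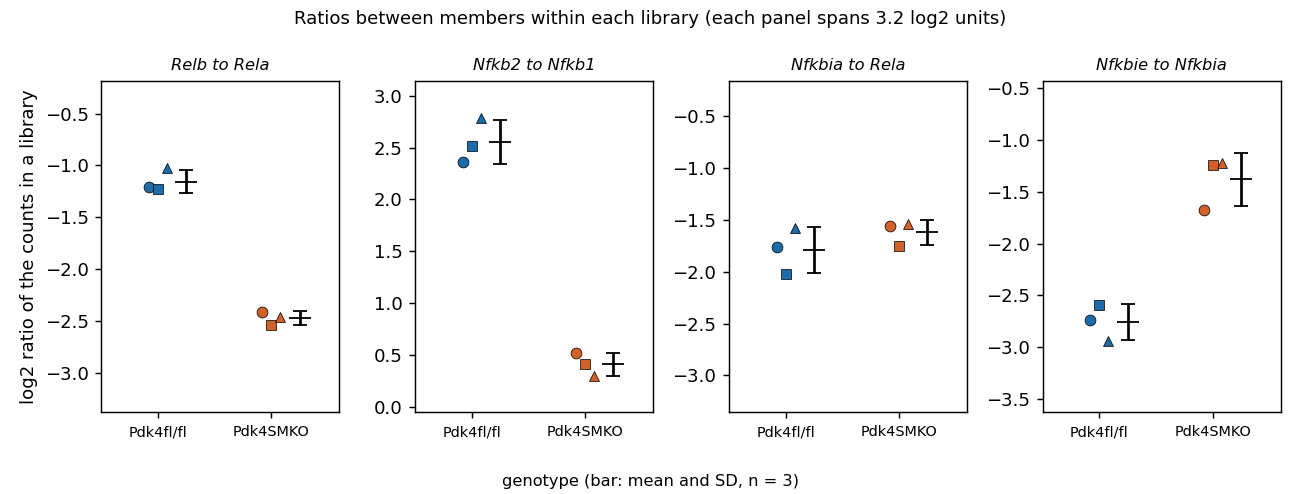
Log2 ratio of the counts of a pair of members within each library, for 4 pairs, by genotype. Points are libraries, bars beside them are the mean and SD of 3, and each panel spans the same height. Relb to Rela and Nfkb2 to Nfkb1 are lower in Pdk4SMKO, Nfkbie to Nfkbia is higher, and Nfkbia to Rela overlaps between genotypes.

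Levels of different genes were compared per kilobase of the gene length given in the table. Nfkb1 and Rel have long annotated lengths (11973 and 7467 bases), so their levels per kilobase are low for their counts. In Pdk4fl/fl the order of the subunits was Rela (507 ± 90.9 CPM per kb, SD, n = 3), Nfkb2 (262 ± 44.0), Relb (158 ± 18.1), Rel (44.0 ± 2.87) and Nfkb1 (12.5 ± 3.43), and no neighbours in that order overlapped. In Pdk4SMKO the order was Rela (47.95 ± 4.84), Nfkb2 (31.6 ± 3.41), Nfkb1 (6.52 ± 0.34), Relb (6.03 ± 0.44) and Rel (3.40 ± 0.47). The ranges of Nfkb1 and Relb overlapped in Pdk4SMKO, but Nfkb1 was slightly above Relb within each library. Nfkb1 had 6.51, 6.86 and 6.17 CPM per kb there, and Relb 6.14, 6.40 and 5.55. In Pdk4fl/fl Relb was far above Nfkb1.

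As a share of the summed subunit CPM per kilobase, Rela took 51.4% ± 1.30 in Pdk4fl/fl and 50.2% ± 1.79 in Pdk4SMKO (SD, n = 3), ranges that overlapped. The shares of Relb and Nfkb1 did not overlap: Relb went from 16.2% ± 0.908 to 6.32% ± 0.0743 and Nfkb1 from 1.26% ± 0.213 to 6.84% ± 0.221. The share of Nfkb2 was 26.6% ± 0.677 and 33.0% ± 1.78, also without overlap, although its level fell.

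Among the 4 inhibitors, Nfkbia was the most abundant per kilobase in both genotypes, at 63.1% ± 2.00 and 52.9% ± 0.949 of their sum. Bcl3 made up 0.447% ± 0.0724 of the inhibitor sum in Pdk4fl/fl and 21.4% ± 2.20 in Pdk4SMKO. Nfkbib went from 30.3% ± 1.92 to 12.3% ± 1.43 and Nfkbie from 6.14% ± 0.638 to 13.4% ± 2.11. All of these are shares of a sum that itself fell, so a larger share is not a higher level. The sum includes the nuclear member Bcl3, whose rise lowers the shares of the other inhibitors. Leaving Bcl3 out, Nfkbia was 258, 252 and 238 CPM per kb of 396, 411 and 374 in Pdk4fl/fl. In Pdk4SMKO Nfkbia was 27.2, 27.0 and 25.8 of 39.5, 40.1 and 39.4. Its share of the cytoplasmic inhibitors was thus slightly higher in every Pdk4SMKO library than in any Pdk4fl/fl library.

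The summed subunits were 993, 1131 and 827 CPM per kb in Pdk4fl/fl and 96.7, 103 and 87.1 in Pdk4SMKO. The cytoplasmic inhibitors Nfkbia, Nfkbib and Nfkbie summed to 396, 411 and 374 CPM per kb in Pdk4fl/fl and 39.5, 40.1 and 39.4 in Pdk4SMKO. The inhibitor sum divided by the subunit sum was 0.398, 0.363 and 0.452 in Pdk4fl/fl and 0.409, 0.391 and 0.452 in Pdk4SMKO. These ranges overlapped almost entirely, while both sums fell by a similar factor.

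**Figure D4:**
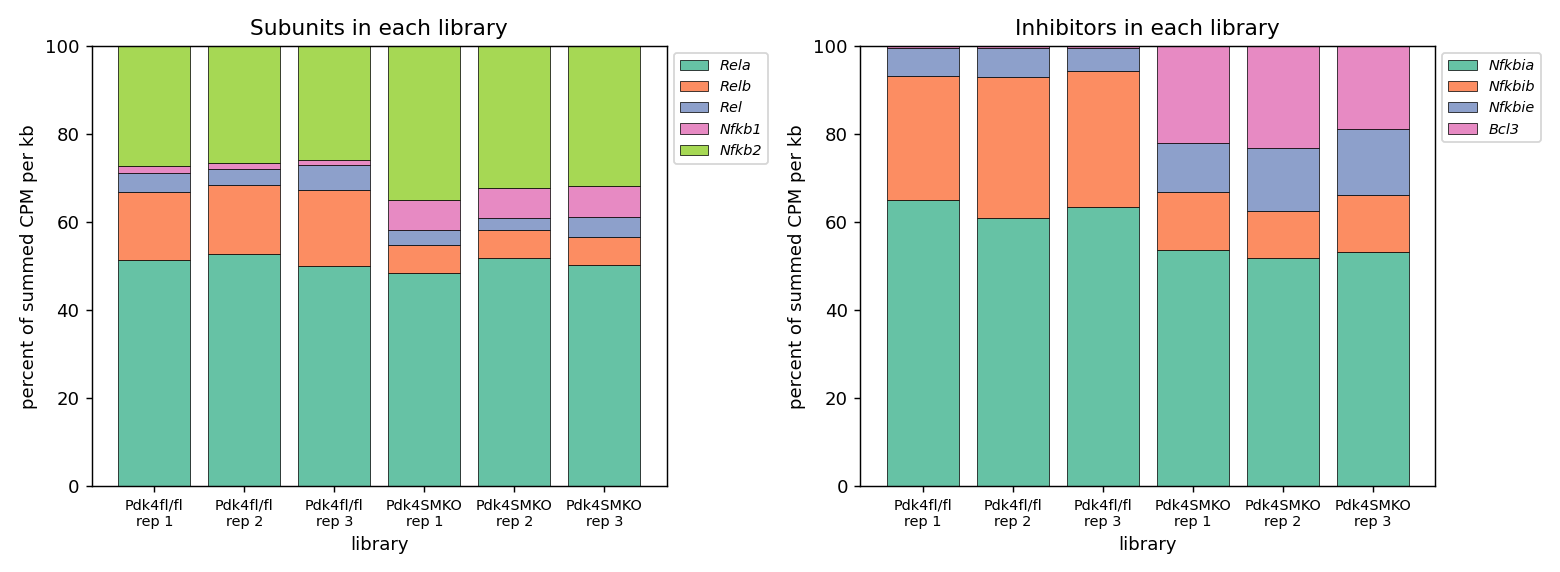
Make-up of the subunit transcripts (left) and the inhibitor transcripts (right) in each library, as percent of their summed CPM per kilobase. Each bar is a library and each colour a gene. Rela holds about the same share in all bars (means 51.4% and 50.2%), Relb shrinks and Nfkb1 grows in Pdk4SMKO, and Bcl3 appears as a large band (mean 21.4%) in Pdk4SMKO.

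The rest of the pathway was read from 7 further lists, in order from the membrane to the nucleus, with the same fit and call. For comparison, 26.5% of all genes tested were called lower and 32.8% higher. The adaptor, IKK and IκB removal lists had smaller shares than these in both directions. Receptors exceeded the share called higher, and brakes, nuclear cofactors and target genes the share called lower. No list was tested against these shares. Of 12 receptors tested, 2 were called lower and 6 higher, with a median log2 fold change of 1.02. Tlr2, a sensor of bacterial lipoproteins, went from 89.4 ± 9.91 to 11.2 ± 2.80 CPM (SD, n = 3; log2 fold change −3.002, SE 0.20, adjusted p = 3.8e-07). The interleukin-1 receptor Il1r1 rose from 5.69 ± 1.21 to 18.2 ± 5.54 CPM (log2 fold change 1.69, adjusted p = 0.000217) and the TNF receptor Tnfrsf1b from 31.9 ± 8.91 to 91.4 ± 11.7 CPM (1.52, adjusted p = 6.4e-05). The angiotensin receptor gene Agtr1a, on the same list, was too low to be tested (means of 0.249 and 0.296 CPM).

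Of 15 adaptors and ubiquitin ligases, 3 were called lower and 4 higher, with a median of 0.14. The lower genes were Birc3, which encodes cIAP2, and the TNF receptor adaptors Traf1 and Traf2. Birc3 fell from 340 ± 28.5 to 12.4 ± 1.84 CPM (SD, n = 3; log2 fold change −4.78, SE 0.16, adjusted p = 1.1e-08) and Traf1 from 47.5 ± 9.34 to 2.70 ± 1.43 CPM (−4.12, adjusted p = 1.1e-06). Irak4, a kinase downstream of interleukin-1 and Toll-like receptors, rose from 2.25 ± 0.288 to 23.9 ± 1.32 CPM (3.39, adjusted p = 1.1e-07). Its span shares 4500 bases with Twf1 on the other strand. Twf1 had 12338 counts over all libraries against 1611 for Irak4, and reads shared by these genes cannot be assigned. Tradd, an adaptor of TNF receptor signaling, rose from 6.36 ± 1.64 to 23.8 ± 3.11 CPM (1.91, adjusted p = 1.7e-05).

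Subunits of the IKK complex gave values of both signs. Of 10 genes of the complex and its upstream kinases, 1 was called lower and 3 higher, with a median of 0.06. Ikbkg, the regulatory subunit NEMO, rose from 29.8 ± 5.74 to 187 ± 12.9 CPM (SD, n = 3; log2 fold change 2.65, SE 0.16, adjusted p = 1.8e-07). Its span shares 36362 bases with G6pdx on the other strand. G6pdx had 7001 counts over all libraries against 13138 for Ikbkg, and reads shared by these genes cannot be assigned. The catalytic subunits gave lower values: Chuk (IKKα) 113 ± 2.86 and 55.5 ± 5.57 CPM (−1.03, adjusted p = 2.2e-05) and Ikbkb (IKKβ) 97.5 ± 7.001 and 62.5 ± 3.40 CPM (−0.64, adjusted p = 0.00051, not called). Chuk lay at the fold threshold, and its call, the 1 lower gene of the list, was lost without Pdk4SMKO replicate 2, leaving 0.

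Map3k14, the kinase NIK that starts the noncanonical pathway, had 26.7 ± 7.25 and 29.7 ± 3.65 CPM (SD, n = 3) with overlapping libraries (log2 fold change 0.15, SE 0.20, adjusted p = 0.507). The IKK-related kinase Ikbke rose from 5.01 ± 0.899 to 28.7 ± 4.54 CPM (2.51, adjusted p = 1.2e-06).

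Of 9 genes for the ubiquitination and removal of IκB, 1 was called lower and 2 higher, with a median of 0.10. Nedd8, the modifier that activates the ligase, fell from 205 ± 53.8 to 73.0 ± 4.39 CPM (SD, n = 3; log2 fold change −1.49, adjusted p = 2.5e-05). The ligase ring subunit Rbx1 rose from 27.3 ± 6.87 to 89.5 ± 9.51 CPM (1.72, adjusted p = 1.0e-05), as did the F-box gene Fbxw7, from 3.68 ± 1.61 to 15.6 ± 0.211 CPM (2.07, adjusted p = 6.0e-05). Btrc and Fbxw11, whose F-box products recognise marked IκB, were not called (log2 fold changes −0.31 and −0.39).

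Brakes other than IκB proteins counted 5 lower and 1 higher of 12 tested, with a median of −0.60. Tnfaip3, which encodes the ubiquitin-editing enzyme A20, fell from 1268 ± 167 to 124 ± 25.4 CPM (SD, n = 3; log2 fold change −3.35, SE 0.19, adjusted p = 1.3e-07). Its partner gene Tnip1 fell from 901 ± 73.6 to 70.6 ± 9.79 CPM (−3.67, adjusted p = 2.5e-08). These values were of the size seen in Rela and Nfkbia. N4bp1 rose from 25.6 ± 3.26 to 55.9 ± 1.61 CPM (1.13, adjusted p = 2.5e-05). Cyld, a deubiquitinase that restrains the pathway, was not called (120 ± 5.10 and 104 ± 5.52 CPM). No row was named Commd1.

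Of 12 nuclear cofactors, 5 were called lower and 0 higher, with a median of −0.62. At an unadjusted p under 0.05 without the fold threshold, 2 of the 12 were higher by edgeR, and DESeq2 with both thresholds also called 0 higher. Rps3, a ribosomal protein that also joins RelA complexes, fell from 2112 ± 509 to 434 ± 5.56 CPM (SD, n = 3; log2 fold change −2.28, SE 0.18, adjusted p = 1.1e-06). The deacetylase gene Hdac1 fell from 179 ± 10.8 to 54.2 ± 1.30 CPM (−1.72, adjusted p = 3.6e-07). The coactivator genes Crebbp and Ep300 were not called (log2 fold changes −0.36 and 0.25).

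Of 25 target genes tested, 14 were called lower and 6 higher, with a median of −1.93. Ccl5 had 186, 160 and 284 CPM in Pdk4fl/fl and 0.439, 0.299 and 0.196 CPM in Pdk4SMKO (log2 fold change −9.35, SE 0.34, adjusted p = 1.5e-08). Cxcl10 went from 150 ± 13.2 to 0.312 ± 0.141 CPM (−8.86, adjusted p = 9.1e-09). Both chemokine genes were near the floor in Pdk4SMKO, with 4 to 10 counts for Ccl5 and 3 to 9 for Cxcl10. In the other direction, Lcn2, a secreted siderophore-binding protein gene, went from 0.965 ± 0.382 to 34.5 ± 18.6 CPM (5.17, adjusted p = 8.7e-06) and the matrix metalloproteinase gene Mmp3 from 18.6 ± 12.1 to 529 ± 38.4 CPM (4.83, adjusted p = 1.6e-06).

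The adhesion molecule genes gave unlike values. Vcam1 was not called (1175 ± 98.9 and 1466 ± 248 CPM, SD, n = 3; log2 fold change 0.32, adjusted p = 0.0721), whereas Icam1 fell from 111 ± 17.1 to 21.4 ± 6.19 CPM (−2.37, adjusted p = 3.2e-06). Sele, Il1b, Tnf and Nos2 were too low to be tested, and no row was named Sod2. Tnfaip3, Birc3, Traf2, Ccl5, Cxcl1 and Cxcl2 are, like Rela, among the genes the study chose to display from these libraries. The genes given in this paragraph with values, and Cyld, Btrc, Fbxw11, Crebbp, Ep300 and Agtr1a above, were chosen after their values were seen.

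**Figure D5:**
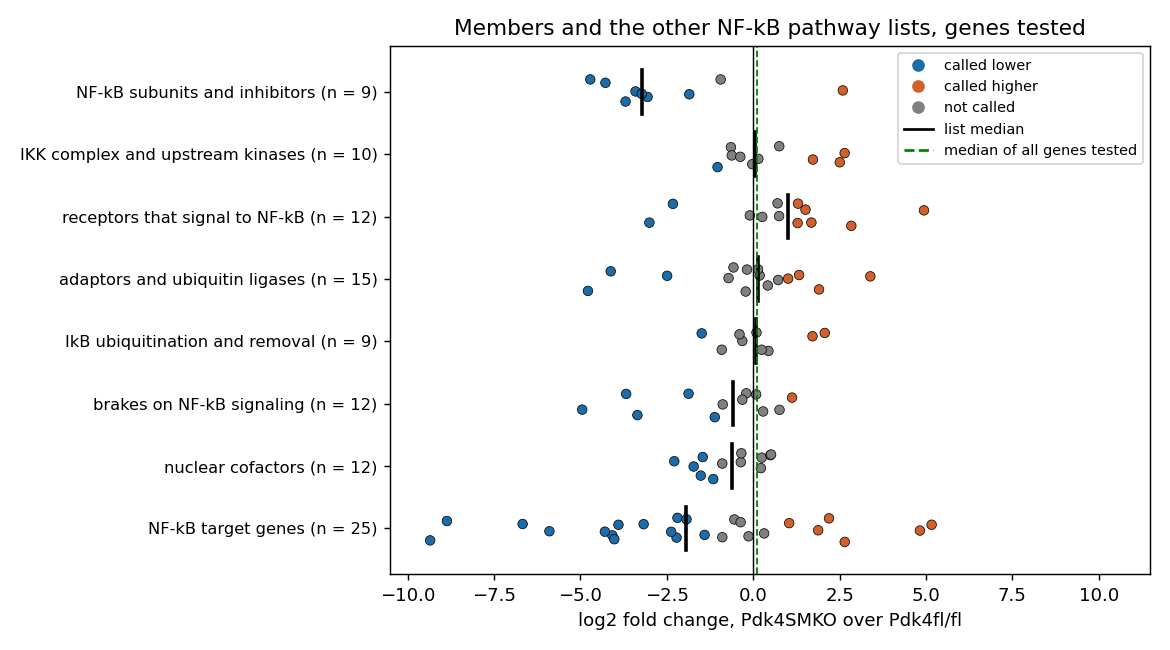
Log2 fold change, Pdk4SMKO over Pdk4fl/fl, of each tested gene of the members and of 7 other NF-κB lists. Each point is a gene (blue called lower, orange called higher, grey not called), the black bar is the list's median and the dashed line the median of all genes tested (0.12). The members' median is −3.22 and that of the target genes −1.93, while the IKK, adaptor and IκB removal lists have medians of 0.06, 0.14 and 0.10.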

How the data were processed

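RNA sequencing (150-bp paired-end reads) was done on 3 libraries of each genotype. The authors deposited raw counts per gene for all 6 libraries in 1 table, with Ensembl identifiers of the C57BL/6NJ strain, coordinates and gene lengths; the submitters' notes name GRCm39. The aligner, the counter and whether strand was used are not given in the sources used here. The study's methods name a NEBNext Ultra kit and GEO's labels a SMARTer kit. The authors' analysis used DESeq2 with a fold change of 2.

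edgeR 4.0.16 under R 4.3.3 gave the genotype test (filterByExpr, TMM, quasi-likelihood test, Benjamini-Hochberg over 14085 genes; called where adjusted p was below 0.05 and the log2 fold change was 1 or more either way). DESeq2 1.42.0 was an alternative. Levels are TMM-scaled CPM with SD; CPM per kb used the table's lengths. Ratios were log2 of counts plus 0.5, tested by exact two-sided permutation over libraries; the planned ratio of Nfkbiz to Nfkbia had no Nfkbiz row, so 4 of the planned ratios were made. The fit was tested on simulated data in which few genes changed, evenly in both directions. That simulation does not test the scaling of these libraries, where 59.3% of the genes tested were called. No columns belonged to other samples, and the table was taken whole.

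The members and the gene lists were chosen with earlier results of these data known. Genes were named by rule: all members, Pdk4, Chuk, Ikbkb, Ikbkg, Map3k14 and Tnfaip3, and from each list up to 2 called genes in each direction with the largest fold changes, 10 CPM or more in the genotype with the higher mean, and no overlap. Correlations across libraries were not given since the libraries form 2 clusters of 3.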

Additional observations from a re-analysis of the deposited data

How the results depend on the processing

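Each member kept its direction under every alternative scaling, filter, tool and left-out library that was run. Alternative thresholds reused the main fit, so they could change calls but not directions. Leaving out 1 library at a time kept Relb between −4.80 and −4.61, Rela between −3.54 and −3.26 and Bcl3 between 2.43 and 2.74. Members called lower numbered 6 to 8 and members called higher 1 throughout: Nfkb1 was called with the adjusted p alone and without Pdk4fl/fl replicate 3, and Nfkbie was not called at a fold change of 4. Over all genes, 2390 were lower by library size alone, and 1765 were lower and 2645 higher at a fold change of 4.

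Lists with few calls were less stable, and the cause was not tested. Without 1 library, IKK genes called lower numbered 0 to 1 (0 without Pdk4SMKO replicate 2) and receptors called lower 1 to 2 (1 without Pdk4fl/fl replicate 3 or Pdk4SMKO replicate 3). IKK genes called lower were 0 with upper-quartile factors, library size alone, no filter, at least 10 counts in every library or a fold change of 4. By library size alone, receptors called lower were 1, IκB removal genes lower 0, brakes higher 2, and cofactors 2 lower and 2 higher. With at least 10 counts in every library, receptors lower were 1 and target genes lower 8. With the adjusted p alone, IKK genes lower were 4, adaptors lower 5, IκB removal genes lower 3, brakes higher 2 and cofactors higher 2. At a fold change of 4, receptors higher were 2, adaptors higher 1, IκB removal genes 0 lower and 1 higher, brakes 3 lower and 0 higher, and cofactors lower 1.

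Libraries with the same replicate number share only a number: deviations from the genotype means correlated at 0.040, 0.060 and 0.176. With a replicate block 3704 genes were lower and 4577 higher, and no member's call changed. For the ratios the exact sign-flip permutation test gave p = 0.25, the smallest it allows with 3 pairs. The ratio of Nfkbiz to Nfkbia could not be run. Of 153 alternative fold changes of members, 150 kept direction and side of the threshold. Those under alternative thresholds are the main values again and could differ in side alone.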

Other observations

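The member that differed most downward and the member that was higher lie near each other: Relb and Bcl3 are 211594 bases apart on chromosome 7 of the annotation used by the table, both on the minus strand. Of 11 genes lying between them, 5 were tested, of which 1 was called lower, 2 higher and 2 not. Clptm1, beside Relb, fell from 246 to 97.6 CPM (log2 fold change −1.33, SE 0.12, adjusted p = 3.6e-06 by edgeR, n = 3 against 3). Bcam, which encodes a laminin-binding adhesion molecule and lies on the Bcl3 side, rose from 3.198 to 107 CPM (log2 fold change 5.06, SE 0.19, adjusted p = 1.9e-08 by edgeR). The other gene called higher, Apoe, lies nearer to Relb than to Bcl3 and rose from 10.1 to 31.3 CPM (log2 fold change 1.63, adjusted p = 4.2e-05 by edgeR). Tomm40, a mitochondrial import gene in the same interval, was not called (26.5 and 28.1 CPM, log2 fold change 0.09). No test of position was made.

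Psd, whose end meets that of Nfkb2 by 11 bases on the other strand, had 2133, 2754 and 1103 counts in Pdk4fl/fl and 352, 261 and 205 in Pdk4SMKO. Nfkb2 had 13377, 18043 and 9325 counts and 2540, 2189 and 1854 counts in the same libraries. In both genes Pdk4fl/fl replicate 2 had the highest count and Pdk4SMKO replicate 3 the lowest. These counts are not scaled for depth, and the same libraries had the largest and smallest total counts (22481670 and 16526044). The shared order is therefore not read as a link between the genes. Whether the reads of Psd come from Psd or run on from Nfkb2 was not tested, since the strand of the counts is not given.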
